A study of Mus musculus with 4 samples.

Results

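Interferon-induced genes were followed by transcript counts in thymocytes of PD-1 knockout and WT mice. The set was given as a list of 43 gene symbols, chosen by name but with earlier results of these data known. Of these, 42 were found among the 32285 genes of the feature table, and each of the 42 had at least 1 UMI in every library. Mx1 was not found there under that symbol and was not analysed here. The 42 genes comprise 4 signalling proteins (Stat2, Irf9, Irf7, Usp18), 11 antiviral effectors, 5 oligoadenylate synthetases and relatives, 3 nucleic acid sensors, 8 interferon-inducible GTPases, 5 genes of the Ifi200 family and 6 others.

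Single-cell RNA sequencing with a 10x Genomics 5′ kit gave 4 libraries of thymus cells from C57BL/6J mice aged 3 weeks, 1 library for each of 2 genotypes (WT and PD-1 knockout) and 2 sort gates. For each genotype the thymi of 4 animals were pooled, so the spread between animals is unknown, and no test between groups was possible. CD8-bearing cells were depleted before sorting, and live CD4+ HSA+ CD73− cells were sorted by CD25 into a negative gate, labelled CD4 single-positive, and a positive gate, labelled as regulatory T cells with their CD25+ progenitors, although the list of stains names CD74 and not CD73. The sources used here do not give the form of the PD-1 knockout allele. Transcripts were counted by UMI, a random tag added to each captured molecule, and levels are given as CPM, the UMIs of a gene per 1000000 UMIs of all cells of a class.

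After filtering, 2985 cells remained in WT CD25−, 1716 in knockout CD25−, 7649 in WT CD25+ and 9236 in knockout CD25+, with a median of 4497, 6299, 5808 and 5961.5 UMIs per cell. The requirement of 500 genes per cell removed 34.3% and 42.9% of barcodes in the WT and knockout CD25− libraries against 1.59% and 1.38% in the CD25+ libraries. Between 15 and 136 barcodes were shared by any pair of libraries. Pdcd1, the gene of PD-1, was not lower in the libraries labelled knockout: it was at 18.3 CPM in WT CD25−, 27.2 CPM in knockout CD25−, 16.0 CPM in WT CD25+ and 18.9 CPM in knockout CD25+. The sources used here do not say whether counted reads fall in a deleted part of the gene, so the Pdcd1 counts do not check the genotype label, and these libraries are called knockout-labelled. The summed CPM of 9 heat shock and immediate-early genes that respond to tissue dissociation was lower in the knockout-labelled library in all 7 class comparisons. In Klf2/S1pr1-high CD4 cells of the CD25− gate it was 1115 against 2633 CPM. Hspa8 alone was at 494 against 2068 CPM in those of the CD25+ gate. By gene, 0 of 9 were higher in high and 3 of 9 in low CD4 cells of the CD25− gate, with median log2 ratios of −0.50 and −0.23. The part of this set in the differences below was not tested.

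Cells were placed in classes by transcripts that are not members of the list. Foxp3 cells had at least 1 UMI of Foxp3, the transcription factor of regulatory T cells. CD4 cells had none of Foxp3 and at least 1 UMI of Cd4 or Trac (the constant region of the T cell receptor α chain), and were split into a Klf2/S1pr1-high class, with at least 2 UMIs of those egress genes together, and a Klf2/S1pr1-low class, called mature and immature CD4 cells here. Ptcra cells had no Cd4 and at least 1 UMI of Ptcra, which pairs with the β chain before the α chain is rearranged and marks CD4-negative, CD8-negative thymocytes. In the order WT CD25−, knockout-labelled CD25−, WT CD25+ and knockout-labelled CD25+, there were 51, 59, 645 and 331 Foxp3 cells, 1182, 818, 415 and 216 high CD4 cells, and 1096, 616, 612 and 547 low CD4 cells. The Ptcra class held 4755 WT and 6530 knockout-labelled cells in the CD25+ gate and none in the CD25− gate, so cells without a Cd4 transcript made up at least 62.2% and 70.7% of the CD25+ libraries despite a gate on CD4 protein. The Ptcra cells also have no Trac or Foxp3 UMI, since a cell that met more than 1 definition (0 to 114 per library) was put in none. As a check of the labels, Il2ra, which encodes CD25, was at 2.36 and 4.12 CPM in the CD25− and at 1193 and 1095 CPM in the CD25+ libraries of WT and knockout-labelled mice. Rag1, Dntt, Notch3, Erg, Ptcra and Il2ra, markers of CD4-negative, CD8-negative thymocytes, summed to 4300 and 3548 CPM in Ptcra cells. The sums were 1013 and 1102 CPM in immature CD25+ cells and 46.1 and 25.4 CPM in immature CD25− cells. Il2ra is the gene of the sort marker, so part of the gap between gates follows from the sort. Ptcra defines its own class, so part of the gap between that class and CD4 cells follows from the definition. A class sum does not show whether the immature CD25+ cells are of 1 kind.

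Type I interferons bind a receptor made of IFNAR1 and IFNAR2, whose kinases JAK1 and TYK2 phosphorylate STAT proteins, STAT2 among them. With IRF9 these form a complex that binds the interferon-stimulated response element, a repeat of GAAA separated by a few bases, in front of genes that block viral replication. Interferon γ acts through STAT dimers at a shorter palindromic site and is the stronger inducer of the immunity-related and guanylate-binding GTPases. In the thymus, medullary epithelial cells and dendritic cells are known sources of interferon in the absence of infection, and single-positive thymocytes acquire interferon-induced transcripts as they mature.

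RefSeq promoter sequence (GRCm38.p6, 250 bases before to 50 after each start) was matched for 34 of the 42 genes, with 41 promoters among them. The response element core, searched as GAAA, any 2 bases and GAAA again, or the same on the other strand, was found in 20 of these 41 promoters (48.8%) and in 978 of 32851 promoters of all genes (2.98%). The STAT palindrome, searched as TTCNNNGAA on either strand, was found in 19.5% of member promoters and 7.02% of all, and both motifs together in 12.2% and 0.332%. By role, the core was in 6 of 8 GTPase promoters, 4 of 6 Ifi200 promoters, 6 of 13 effector promoters and 2 of 4 synthetase promoters. A match is a string of letters in this window and not evidence of binding. The 8 promoters printed here belong to members on which the comparisons below turn. Isg15, Ifit1, Oas1a, Ifi208 and Ifi213 were shifted higher in knockout-labelled Ptcra cells. In CD4 cells Oas1a and Ifi208 were also shifted higher, whereas Ifit1 and Ifi213 were shifted lower in a CD4 class of the CD25+ gate. Igtp, Irgm2 and Tgtp1 are GTPases that were shifted in mature CD25− CD4 cells, Irgm2 also in Ptcra cells. Each is the 180 bases before the start, 5′ to 3′ on the gene's strand, with matches of the response element core in capitals.
Isg15 (chr4:156200819-156200998, minus strand): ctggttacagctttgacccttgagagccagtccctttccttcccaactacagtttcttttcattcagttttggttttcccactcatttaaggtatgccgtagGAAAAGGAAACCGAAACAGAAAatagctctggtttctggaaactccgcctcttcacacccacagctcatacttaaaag
Ifit1 (chr19:34640709-34640888, plus strand): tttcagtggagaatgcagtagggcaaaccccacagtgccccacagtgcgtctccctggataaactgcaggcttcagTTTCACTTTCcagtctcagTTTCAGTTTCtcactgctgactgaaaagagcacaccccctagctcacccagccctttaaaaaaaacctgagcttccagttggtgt
Oas1a (chr5:120907526-120907705, minus strand): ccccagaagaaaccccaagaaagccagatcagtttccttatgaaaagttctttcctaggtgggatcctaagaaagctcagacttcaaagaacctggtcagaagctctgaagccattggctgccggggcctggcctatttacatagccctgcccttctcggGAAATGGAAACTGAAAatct
Ifi208 (chr1:173673485-173673664, plus strand): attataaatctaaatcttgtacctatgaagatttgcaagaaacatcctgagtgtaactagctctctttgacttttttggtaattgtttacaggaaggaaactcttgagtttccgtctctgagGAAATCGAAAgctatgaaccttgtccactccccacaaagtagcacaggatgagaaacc
Ifi213 (chr1:173599273-173599452, minus strand): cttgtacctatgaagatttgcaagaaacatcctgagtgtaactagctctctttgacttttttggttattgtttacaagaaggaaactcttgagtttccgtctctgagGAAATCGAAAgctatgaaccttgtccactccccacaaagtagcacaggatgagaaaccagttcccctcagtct
Igtp (chr11:58199376-58199555, plus strand): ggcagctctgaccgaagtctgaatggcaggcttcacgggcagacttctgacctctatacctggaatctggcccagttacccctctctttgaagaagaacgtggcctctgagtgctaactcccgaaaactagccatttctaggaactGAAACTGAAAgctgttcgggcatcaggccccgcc
Irgm2 (chr11:58214797-58214976, plus strand): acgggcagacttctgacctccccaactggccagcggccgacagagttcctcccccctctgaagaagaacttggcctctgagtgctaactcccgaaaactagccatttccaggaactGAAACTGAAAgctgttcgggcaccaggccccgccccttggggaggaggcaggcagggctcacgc
Tgtp1 (chr11:48992247-48992426, minus strand): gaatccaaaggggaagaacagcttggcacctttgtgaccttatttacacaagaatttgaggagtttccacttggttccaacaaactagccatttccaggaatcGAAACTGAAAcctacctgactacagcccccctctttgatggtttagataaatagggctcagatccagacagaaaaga
In Isg15 the cores overlapped and began 78, 72 and 66 bases before the start. The 3 GTPase promoters each held the STAT palindrome 11 bases ahead of the core: at 45 and 34 bases before the start in Igtp, 75 and 64 in Irgm2, and 88 and 77 in Tgtp1. Among all 41 member promoters, 5 held both motifs, and 3 of these were the GTPases just named, with Oas1a and Bst2 as the others (in Bst2 the motifs overlap). No promoter was matched for Iigp1, Oas2, Usp18, Zbp1, Ifi27l2a, Rtp4, Dhx58 and Parp14. The 5 Ifi200 genes are on chromosome 1, the 5 Oas and Oasl genes on chromosome 5 and the 4 Ifit genes on chromosome 19, and chromosome 11 holds 8 members, among them Irgm1, Tgtp1, Ifi47, Igtp and Irgm2 (GENCODE vM21, GRCm38). Ifit3 and Ifit3b, and Tgtp1 and Tgtp2, are near-identical copies, the Ifi200 genes are related copies, and the models of Igtp and Irgm2 overlap. Reads of these genes can be left uncounted or assigned to the wrong copy, so their single values are uncertain.

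Member transcripts were most abundant in Foxp3 cells and in mature CD4 cells, lower in immature CD4 cells and lowest in Ptcra cells. Summed over the 42 genes, Foxp3 cells held 6287 CPM in WT CD25−, 9256 in knockout-labelled CD25−, 6913 in WT CD25+ and 8218 in knockout-labelled CD25+. The Klf2/S1pr1-high CD4 class held 6432, 8253, 5454 and 5909 CPM in the same order, and the low class held 3425, 4001, 2500 and 2189 CPM. Ptcra cells held 1426 CPM in WT and 1918 CPM in knockout-labelled CD25+. Ifi27l2a, a small mitochondrial protein of uncertain role, supplied much of the sum in CD4 and Foxp3 cells, with 1665 of the 6432 CPM in WT CD25− mature cells, but only 4.49 of the 1426 CPM in WT Ptcra cells.

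**Figure D1:**
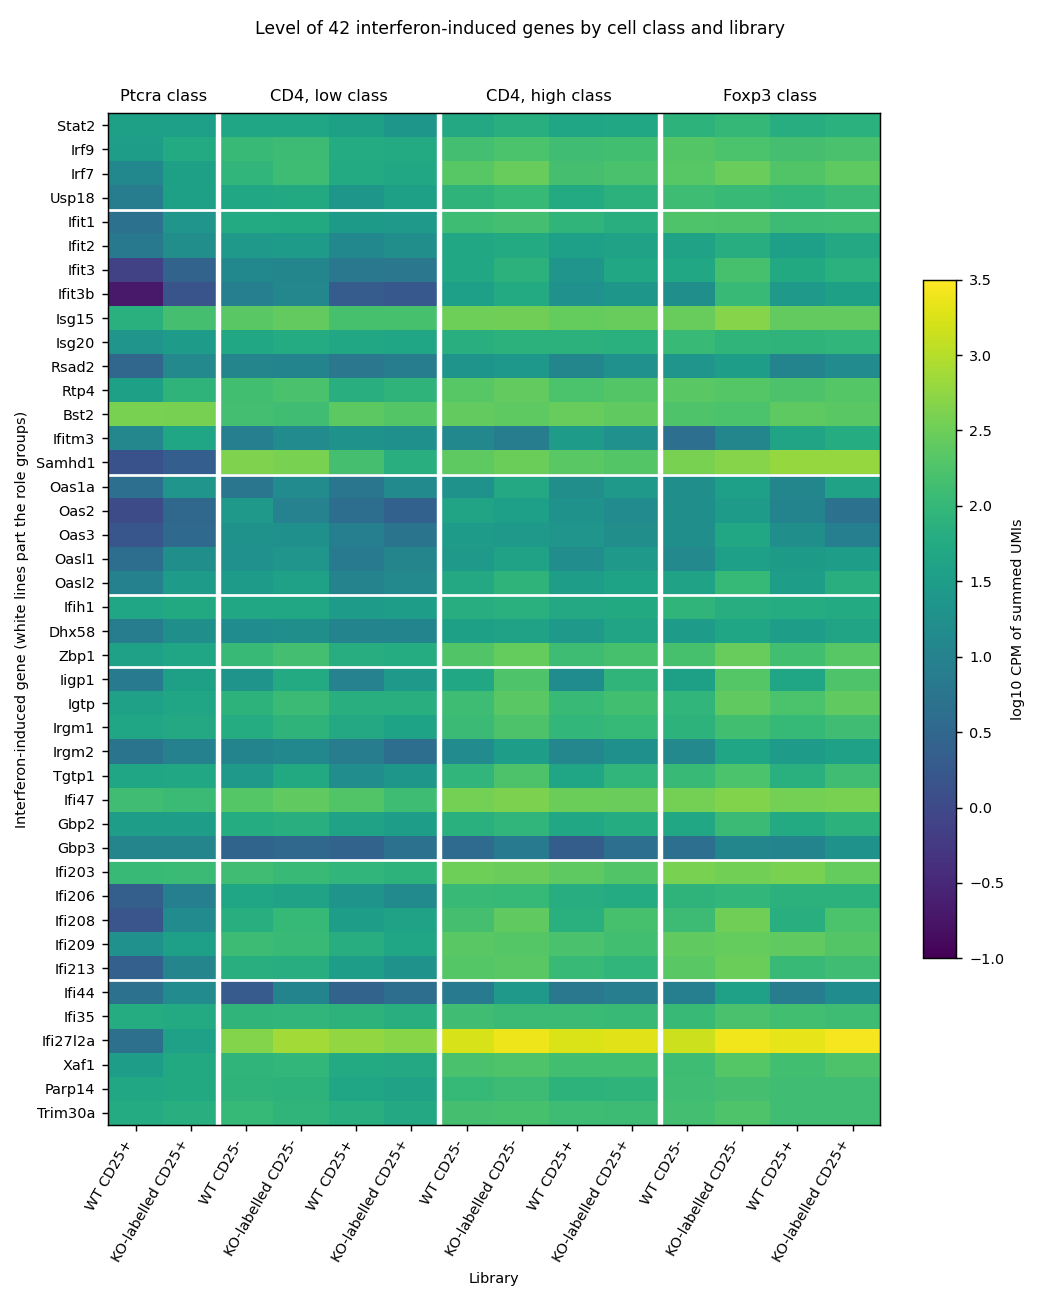
Heat map of the level of the 42 interferon-induced genes (rows, white lines between role groups) in each class and library (columns), as log10 of CPM, with 1 library per column and no error shown. Most rows are darkest (lowest) in the WT Ptcra column and brighten toward the mature CD4 and Foxp3 columns, while the Bst2 row is brightest in the 2 Ptcra columns.

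The position of the Ptcra class differed from gene to gene. Taking the level in the mature CD4 class of the same library as 100%, the median member stood at 26.6% in WT Ptcra cells (40 members with enough UMIs, range 0.254% to 139.6%) and at 42.6% in knockout-labelled Ptcra cells (36 members, range 1.15% to 232.6%). Bst2, which tethers budding virions to the cell surface, was at 400 CPM in WT and 371 CPM in knockout-labelled Ptcra cells, 139.6% and 145.8% of the mature CD4 level. Ifitm3 was at 40.6% in WT and 232.6% in knockout-labelled Ptcra cells, and Tgtp1 at 101% and 51.4%. Every other member with enough UMIs in a library was below 100% there. At the other end stood Ifi27l2a (0.254% and 1.84%) and Samhd1, a dNTP hydrolase that limits reverse transcription (0.593% and 1.15%). Also low were Ifit3b (1.06% and 6.33%), Ifit3 (3.29% and 5.34%) and Ifi208 (2.11% and 9.57%). Isg15, the ubiquitin-like modifier, was at 26.7% and 53.8%. The members therefore do not form 1 block across T cell development in these libraries.

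Within each library, nearly every member was higher in the Klf2/S1pr1-high than in the low CD4 class, a contrast in which neither side is defined by a member. At least 1.5-fold higher were 28 of 42 measured members in WT CD25− (7.37% of all measured genes), 33 of 42 in knockout-labelled CD25− (9.34%), 35 of 40 in WT CD25+ (10.8%) and 39 of 41 in knockout-labelled CD25+ (11.2%). A gene counted as measured when it had at least 30 UMIs over the 2 sums compared. At any size 41 of 42, 40 of 42, 40 of 40 and 41 of 41 were higher, against 31.2%, 33.1%, 40.0% and 41.2% of all genes. The median log2 ratio of members was 0.82, 0.96, 1.17 and 1.247 in that order, against −0.19, −0.18, −0.10 and −0.09 over all measured genes. Cells of the high class were deeper in the CD25− gate (median 5834 against 3846 UMIs in WT, and 7104 against 6017.5 in knockout-labelled), and the class needs 2 UMIs of its defining genes. With each cell thinned to 1500 UMIs before classes were assigned, the medians were 0.36 in WT CD25−, 0.53 in knockout-labelled CD25− and 0.48 in WT CD25+, and 6, 20 and 19 members passed 1.5-fold.

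Of 40 members measured in all 4 libraries, 38 were higher in the mature class in all 4 and 25 by at least 1.5-fold in all 4. The shares of all measured genes that met these rules in all 4 were not counted. The steepest members were 2 neighbouring effectors that bind viral RNA. Ifit3 was 3.92-fold, 6.72-fold, 3.52-fold and 8.37-fold higher in WT CD25−, knockout-labelled CD25−, WT CD25+ and knockout-labelled CD25+, and Ifit3b between 3.94-fold and 13.6-fold. Ifi27l2a was 3.05-fold to 4.01-fold higher and Tgtp1, an immunity-related GTPase, 2.75-fold to 3.88-fold. These 4 genes kept the same direction in every library, and the lower bound of every counting interval was above 2.

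The exceptions were Samhd1 and Ifitm3. Samhd1 was 1.77-fold lower in the mature class of WT CD25− (95% counting interval 1.66 to 1.89) and 1.31-fold lower in that of knockout-labelled CD25− (1.23 to 1.40), but 1.52-fold and 2.92-fold higher in the mature class of the WT and knockout-labelled CD25+ libraries. Ifitm3, a membrane protein that blocks viral entry, was 1.79-fold lower in the mature class of knockout-labelled CD25− (1.20 to 2.67) and 1.44-fold, 1.49-fold and 1.07-fold higher in the others. Samhd1 was at 430 and 399 CPM in the immature CD25− cells of WT and knockout-labelled mice, against 149 and 66.7 CPM in the immature CD25+ cells. Intervals here and below are exact binomial intervals at 95% that cover counting error only, not the spread between mice.

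**Figure D2:**
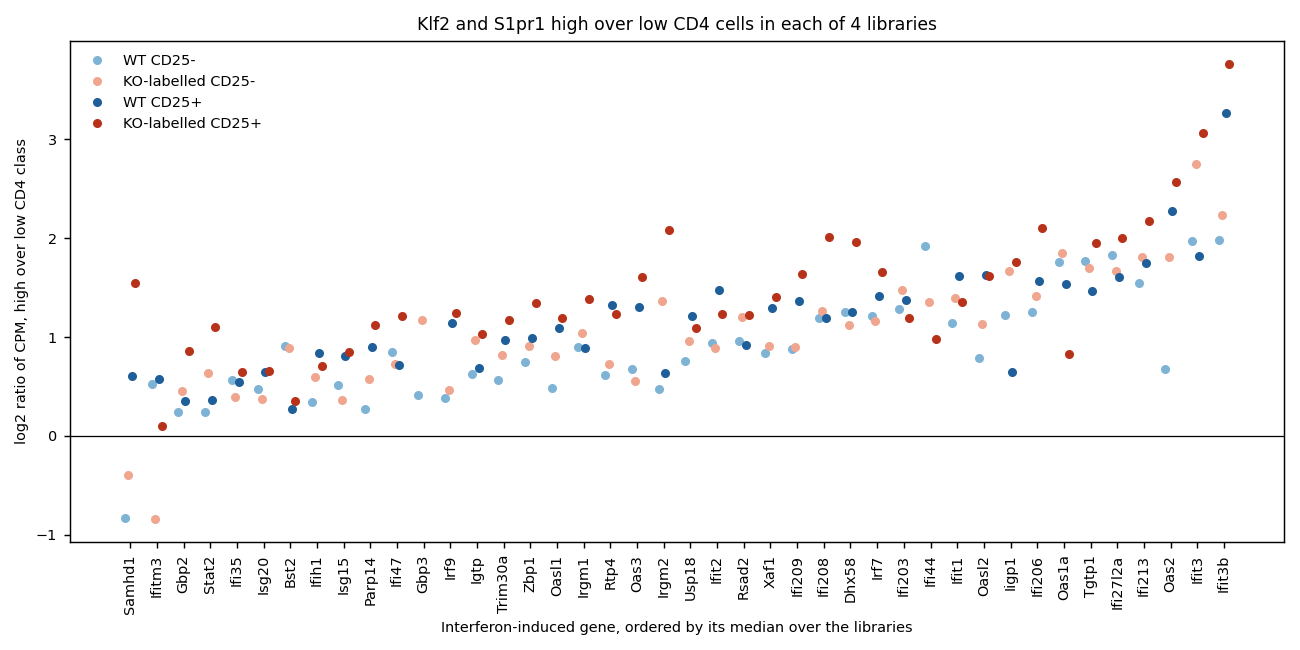
Log2 ratio of CPM of the Klf2/S1pr1-high over the low CD4 class (vertical axis) for each member (horizontal axis, ordered by median), with 1 point per library, a line at 0 and no error shown. Nearly all points lie above 0, those of Ifit3 and Ifit3b highest, and Samhd1 and Ifitm3 have points on both sides of 0.

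In the CD25− gate, members were on balance higher in the knockout-labelled library in all 3 classes. In mature CD4 cells 34 of 42 members were higher (49.1% of all measured genes), 12 by at least 1.5-fold (5.73%) and 1 lower by as much (3.14%), with a median log2 ratio of 0.27 against −0.01 over all genes. In immature CD4 cells 27 of 41 were higher (46.0%), 7 by at least 1.5-fold (4.24%) and 1 lower (5.04%), with a median of 0.21 against −0.03. In Foxp3 cells 24 of 32 were higher (48.6%), 15 by at least 1.5-fold (8.78%) and none lower (10.7%), with a median of 0.45 against −0.02. The Foxp3 values rest on 51 and 59 cells. Classes of 1 gate share no cells, but they come from the same pair of libraries and do not repeat the comparison.

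The GTPases led the CD25− comparison. All 8 were higher in the knockout-labelled library in mature CD4 cells, 6 by at least 1.5-fold, with a median log2 ratio of 0.87. For the 5 synthetases that median was 0.54, for the 4 signalling genes 0.35, for the effectors 0.20, for the sensors 0.18 and for the Ifi200 genes −0.07. In immature cells the GTPases were again highest (median 0.44, 7 of 7 measured higher, 2 by at least 1.5-fold), and in Foxp3 cells 6 of 6 measured were higher, 5 by at least 1.5-fold (median 1.04). These medians describe genes picked by name with earlier results of these data known, and are not tests.

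Iigp1 (chromosome 18, 60376027 to 60392634), a GTPase that coats and ruptures the vacuoles of intracellular parasites, was higher in the knockout-labelled library in every class. Mature CD4 cells had it at 50.2 CPM in WT CD25−, 182 in knockout-labelled CD25−, 15.3 in WT CD25+ and 89.1 in knockout-labelled CD25+. In immature CD4 cells the levels were 21.4, 57.0, 9.80 and 26.4 CPM, and in Foxp3 cells 35.4, 207, 44.7 and 183 CPM. Each knockout-labelled value was above both WT values of its class. The ratio was 3.62 (3.22 to 4.09) in mature, 2.66 (2.08 to 3.40) in immature and 5.85 (2.81 to 14.1) in Foxp3 cells of the CD25− gate. In the CD25+ gate it was 5.81 (4.10 to 8.38), 2.69 (1.85 to 3.99) and 4.09 (3.32 to 5.05), and 4.71 (4.13 to 5.39) in Ptcra cells, where the levels were 7.58 and 35.7 CPM. A gene was called shifted when its ratio was at least 25% above or 20% below 1 and its counting interval excluded 1. Of the 31 members measured in all 7 class comparisons, Iigp1 was the only one shifted higher in all 7.

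Tgtp1 (chromosome 11, 48985327 to 48994172) and Igtp (chromosome 11, 58199556 to 58207591), further immunity-related GTPases, differed less. Tgtp1 in mature CD4 cells was at 93.2 CPM in WT CD25−, 176 in knockout-labelled CD25−, 45.0 in WT CD25+ and 91.7 in knockout-labelled CD25+, ratios of 1.88 (1.71 to 2.07) and 2.04 (1.59 to 2.61). In Ptcra cells it was at 45.4 and 47.2 CPM, a ratio of 1.04 (0.973 to 1.11). Igtp was at 127, 224, 109 and 137 CPM in mature CD4 cells in the same order of libraries, ratios of 1.76 (1.62 to 1.92) and 1.26 (1.05 to 1.501), and at 37.6 and 46.6 CPM in Ptcra cells. Both genes thus differed in mature CD4 cells of either gate and by 1.24-fold or less in Ptcra cells. Irgm2 was at 14.7 against 32.9 CPM in mature CD25− cells (2.23-fold, 1.76 to 2.85), and Irgm1 at 116 against 175 CPM (1.502-fold, 1.37 to 1.65).

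Gbp2, Gbp3 and Ifi47 complete the GTPases. Gbp2 was at 73.1 against 92.5 CPM in mature CD25− cells (1.27-fold, 1.12 to 1.43), and Gbp3 was at 3.75 against 7.18 CPM (1.91-fold, 1.16 to 3.21). Ifi47 was at 368 and 416 CPM there (1.13-fold, 1.07 to 1.20).

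The synthetases make the second messenger that activates RNase L, and they did not move together. Oas1a (chromosome 5, 120896256 to 120907521) was at 19.9 CPM in WT CD25−, 52.7 in knockout-labelled CD25−, 16.8 in WT CD25+ and 25.6 in knockout-labelled CD25+ mature cells. Its ratio was 2.65 (2.17 to 3.25) in the CD25− gate and 1.53 (0.977 to 2.38) in the CD25+ gate, so the second interval includes 1. Oas2 (chromosome 5, 120730333 to 120749853), its neighbour, went the other way in CD4 cells. It was at 26.9 CPM in WT CD25− immature cells and 9.80 in knockout-labelled ones, 2.74-fold lower (1.88 to 4.07), and at 43.1 and 34.5 CPM in mature cells, a ratio of 0.80 with a bound of 1.05-fold to 1.49-fold lower. In the CD25+ gate Oas2 was at 4.27 and 2.49 CPM in immature, 20.7 and 14.7 CPM in mature and 10.5 and 5.02 CPM in Foxp3 cells, and its intervals in mature and Foxp3 cells included 1, with too few UMIs in immature cells. Oas3 was at 31.1 and 26.8 CPM in mature CD25− cells (0.861, 0.701 to 1.06). Oasl2 was at 51.4 and 83.1 CPM there (1.62-fold, 1.41 to 1.85), and Oasl1 at 27.0 and 39.1 CPM (1.45-fold, 1.20 to 1.76).

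Among the signalling genes, Irf7, the factor that amplifies the response, was at 215 CPM in WT and 282 CPM in knockout-labelled mature CD25− cells (1.31-fold, 1.22 to 1.40) and at 92.9 and 126 CPM in immature ones (1.36-fold, 1.19 to 1.55). Stat2 was at 52.5 and 69.6 CPM in mature (1.32-fold, 1.15 to 1.52) and 44.4 and 44.8 CPM in immature CD25− cells. Irf9 was at 144 and 167 CPM (1.16-fold, 1.06 to 1.27) in mature cells. Usp18, which removes ISG15 from proteins and dampens the receptor, was at 83.9 and 105 CPM (1.245-fold, 1.11 to 1.39). All 4 were higher in the knockout-labelled library in both CD4 classes of this gate, none by 1.5-fold.

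The antiviral effectors were mixed. Isg15 was at 321 CPM in WT and 336 CPM in knockout-labelled mature CD25− cells (1.05-fold, 0.985 to 1.11) but at 279 and 487 CPM in Foxp3 cells (1.75-fold, 1.30 to 2.37). Ifit3 was at 50.2 and 76.6 CPM in mature cells (1.53-fold, 1.33 to 1.75) and 48.7 and 155 CPM in Foxp3 cells (3.17-fold, 1.64 to 6.74). Its neighbour Ifit1 was at 124 and 143 CPM in mature (1.15-fold, 1.05 to 1.27), 56.3 and 54.3 CPM in immature and 182 and 172 CPM in Foxp3 cells. Ifit2 was at 49.8 and 56.6 CPM in mature cells, and Rsad2, known as viperin, at 21.5 and 25.1 CPM. Rtp4 was at 211 and 268 CPM (1.27-fold, 1.18 to 1.36), Isg20 at 68.0 and 77.1 CPM, and Samhd1 at 243 and 304 CPM (1.254-fold, 1.17 to 1.34). Bst2 was slightly lower in the knockout-labelled library, at 264 and 246 CPM.

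In the Ifi200 family of DNA-binding and DNA-sensing proteins, Ifi208 (chromosome 1, 173673675 to 173698395) differed from its neighbours. It was at 149 CPM in WT and 253 CPM in knockout-labelled mature CD25− cells (1.70-fold, 1.57 to 1.84), at 65.0 and 105 CPM in immature cells (1.61-fold, 1.39 to 1.88) and at 124 and 336 CPM in Foxp3 cells (2.71-fold, 1.78 to 4.25). Ifi213, whose promoter also carries the core, was at 204 and 225 CPM in mature cells, Ifi203 at 325 and 298 CPM, Ifi209 at 221 and 203 CPM and Ifi206 at 110 and 105 CPM. The 4 neighbours were thus not shifted in mature CD25− cells. Of the sensors, Zbp1 was at 189 and 271 CPM (1.43-fold, 1.33 to 1.54), Dhx58 at 36.3 and 38.8 CPM and Ifih1 at 64.2 and 72.9 CPM.

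Of the remaining members, Ifi44, a cytosolic protein with a GTP-binding motif, had a low level and a wide ratio. It was at 7.37 CPM in WT and 27.1 CPM in knockout-labelled mature CD25− cells (3.68-fold, 2.69 to 5.11) and at 1.95 and 10.6 CPM in immature cells (5.44-fold, 2.60 to 12.7). Ifi27l2a was at 1665 and 2422 CPM in mature (1.46-fold, 1.42 to 1.49), 468 and 761 CPM in immature (1.63-fold, 1.54 to 1.72) and 1444 and 2510 CPM in Foxp3 cells (1.74-fold, 1.53 to 1.98). Xaf1 was at 161 and 182 CPM, Parp14 at 104 and 120, Trim30a at 151 and 155 and Ifi35 at 133 and 118 CPM in mature cells.

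Separating the genes by class in the CD25− gate, 9 members were shifted higher in every class where they were measured: Ifi27l2a, Zbp1, Ifi208, Igtp, Irgm1, Iigp1, Oasl2, Oas1a and Ifi44. Oas2 was shifted lower in both classes where it was measured. In 1 class alone 7 were shifted, all higher: Samhd1, Rtp4, Stat2, Oasl1 and Irgm2 in mature CD4 cells, and Isg15 and Xaf1 in Foxp3 cells. Irf7 and Tgtp1 were shifted in both CD4 classes, and Gbp2, Ifit3 and Ifit3b in mature CD4 and Foxp3 cells. Ifitm3 went in opposite directions, 18 members were shifted in none, and Gbp3 was measured in 1 class. By this rule 20 members were shifted higher and 2 lower in mature cells (8.29% and 6.55% of all measured genes), 12 and 1 in immature cells (6.24% and 9.92%), and 12 and 0 in Foxp3 cells (3.97% and 4.32%). A gene shifted in 1 class and not in another was not tested for a difference between the classes, and the Foxp3 class has the fewest UMIs. Oas1a and Ifi44 had enough UMIs in 2 classes, both of CD4 cells. The shares of all measured genes shifted in every class or in 1 class alone were not counted.

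**Figure D3:**
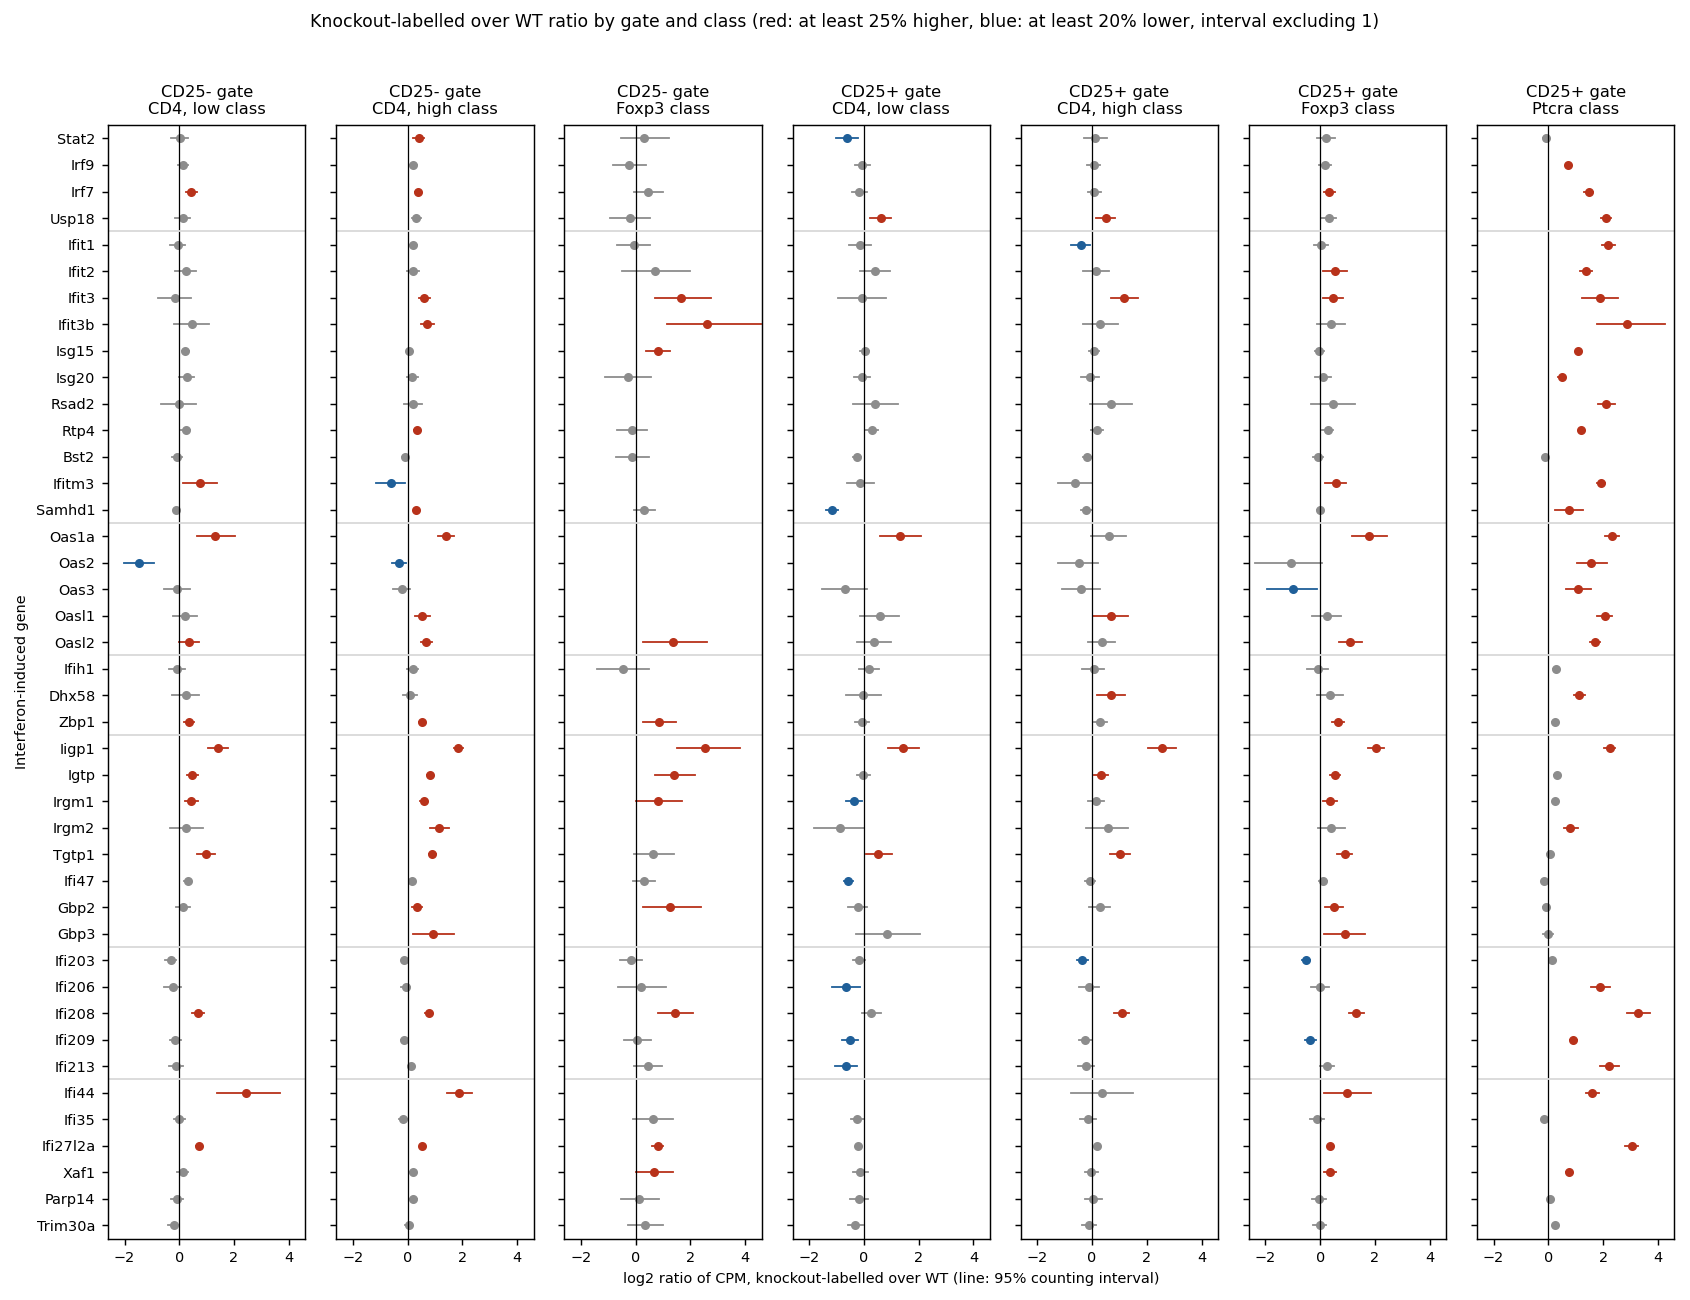
Log2 ratio of CPM, knockout-labelled over WT (horizontal axis), for each member (rows, lines between role groups) in the 7 class comparisons (panels), with 95% counting intervals as lines. Red and blue points are shifted (at least 25% higher or 20% lower, with an interval that excludes 1), grey points are not, members with fewer than 30 UMIs have no point, and the interval of Ifit3b in CD25− Foxp3 cells runs past the axis. Iigp1 is red in all 7 panels, Oas2 is blue in both CD25− CD4 panels, and the Ptcra panel holds no blue point.

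In the CD25+ gate the direction depended on the class. In Foxp3 cells 30 of 42 members were higher in the knockout-labelled library (44.9% of all measured genes), 8 by at least 1.5-fold (5.23%) and 2 lower (6.29%), with a median log2 ratio of 0.33 against −0.04 over all genes. Of 41 measured in mature CD4 cells, 26 were higher (49.9%), 8 by at least 1.5-fold (6.01%) and 1 lower (5.99%), with a median of 0.13 against −0.00. With classes assigned after thinning, that median was 0.61 with 18 members at least 1.5-fold higher. In immature CD4 cells 13 of 39 were higher (48.1%), 4 by at least 1.5-fold (6.76%) and 6 lower (5.02%), with a median of −0.13 against −0.01. In immature cells 10.3% of members were thus called higher and 15.4% lower. Both shares were above those of all genes but rest on few members. Beside these values, the 6 maturation markers, which include Klf2 and S1pr1, summed to 417 CPM in knockout-labelled and 594 CPM in WT immature CD25+ cells. The 6 markers of CD4-negative, CD8-negative thymocytes summed to 276 and 116 CPM in mature CD25+ cells, Il2ra alone being at 147 and 94.6 CPM. The part of both marker sets in the differences was not tested. Siglech, which marks plasmacytoid dendritic cells, was at 21.2 and 18.6 CPM in mature CD25+ cells.

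In CD25+ Foxp3 cells the GTPases were again highest (median 0.52, 8 of 8 higher, 3 by at least 1.5-fold). Igtp was at 171 CPM in WT and 249 CPM in knockout-labelled cells (1.46-fold, 1.28 to 1.66), Tgtp1 at 71.4 and 133 CPM (1.86-fold, 1.53 to 2.26), Gbp2 at 55.9 and 79.1 CPM (1.42-fold, 1.12 to 1.79) and Gbp3 at 10.9 and 20.1 CPM (1.85-fold, 1.10 to 3.11). The synthetases split: Oas1a was at 11.5 and 39.6 CPM (3.44-fold, 2.24 to 5.36) and Oasl2 at 31.6 and 67.8 CPM (2.15-fold, 1.62 to 2.86), whereas Oas3 was at 17.4 and 8.79 CPM, 1.98-fold lower (1.08 to 3.87). Ifi208 was at 68.7 and 171 CPM (2.49-fold, 2.08 to 3.00), while Ifi203 was at 397 and 277 CPM, 0.698 of the WT level (0.625 to 0.780). None of the 11 effectors passed 1.5-fold in either direction, Isg15 being at 265 and 259 CPM.

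In CD25+ CD4 cells the widest ratio in mature cells was that of Iigp1, given above. Ifi208 there was at 73.2 and 156 CPM (2.13-fold, 1.76 to 2.58). Ifit3 in mature cells was at 22.1 CPM in WT and 50.01 CPM in knockout-labelled cells (2.26-fold, 1.60 to 3.21), while Ifit1 was at 87.8 and 66.0 CPM, 1.33-fold lower (1.05 to 1.69). Samhd1 in immature cells was at 149 and 66.7 CPM, 2.23-fold lower (1.93 to 2.59), against 430 and 399 CPM in the CD25− gate. Usp18 was higher in both CD4 classes, at 23.9 and 36.6 CPM in immature (1.53-fold, 1.18 to 2.01) and 55.3 and 78.2 CPM in mature cells (1.41-fold, 1.11 to 1.80). Stat2 in immature cells was at 36.2 and 23.6 CPM, 0.654 of the WT level (0.499 to 0.853), and Ifi47 at 186 and 126 CPM (0.676, 0.602 to 0.758). The median log2 ratios of the Ifi200 genes (−0.50) and of the GTPases (−0.12) were below 0 in these immature cells.

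Ptcra cells had the highest median ratio of members of the 7 class comparisons. Here 36 of 42 members were higher in the knockout-labelled library (43.5% of all measured genes), 27 by at least 1.5-fold (7.85%), and none was lower by as much (4.56%), with a median log2 ratio of 1.09 against −0.04 over all genes. The Ifi200 genes (median 1.90, 4 of 5 at least 1.5-fold higher), the synthetases (1.69, 5 of 5), the effectors (1.36, 9 of 11) and the signalling genes (1.10, 3 of 4) were ahead of the sensors (0.27, 1 of 3) and the GTPases (0.15, 2 of 8). The GTPases, which led in the CD25− CD4 classes and in CD25+ Foxp3 cells, were last here. In CD25+ CD4 cells the synthetases were ahead, with medians of 0.35 in mature and 0.46 in immature cells against 0.33 and −0.12 for the GTPases. Whether these orders differ was not tested.

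Levels in Ptcra cells were low for most members. The sum over members was 1426 CPM in WT and 1918 CPM in knockout-labelled Ptcra cells, against 6287 and 9256 CPM in CD25− Foxp3 cells. Isg15 was at 71.8 CPM in WT and 152 CPM in knockout-labelled Ptcra cells (2.11-fold, 2.02 to 2.21), Rtp4 at 36.2 and 82.9 CPM (2.29-fold, 2.15 to 2.44) and Irf7 at 12.8 and 35.5 CPM (2.76-fold, 2.49 to 3.08). Ifit1 was at 4.87 and 22.2 CPM (4.55-fold, 3.86 to 5.39), Usp18 at 8.17 and 35.4 CPM (4.33-fold, 3.82 to 4.94) and Rsad2 at 3.03 and 13.2 CPM (4.34-fold, 3.52 to 5.39). Ifitm3 was at 11.9 and 44.7 CPM (3.77-fold, 3.39 to 4.20). In mature CD4 cells of the same gate the ratios of these genes were lower: 1.05 for Isg15, 1.14 for Rtp4, 1.06 for Irf7, 0.752 for Ifit1, 1.41 for Usp18, 1.63 for Rsad2 and 0.657 for Ifitm3.

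The Ifi200 cluster and the synthetases had still wider ratios in Ptcra cells. Ifi208 was at 1.55 CPM in WT and 14.9 CPM in knockout-labelled cells (9.64-fold, 7.29 to 12.999), Ifi213 at 2.42 and 11.2 CPM (4.63-fold, 3.67 to 5.91), Ifi206 at 2.33 and 8.71 CPM (3.73-fold, 2.93 to 4.81) and Ifi209 at 18.9 and 35.4 CPM (1.87-fold, 1.71 to 2.05). Ifi203 was at 109 and 119 CPM. Oas1a was at 4.40 and 22.0 CPM (5.003-fold, 4.22 to 5.97), Oasl1 at 4.20 and 17.4 CPM (4.14-fold, 3.46 to 4.98), Oasl2 at 9.65 and 31.2 CPM (3.23-fold, 2.87 to 3.65) and Oas3 at 1.60 and 3.42 CPM (2.13-fold, 1.56 to 2.95). Oas2, lower in the knockout-labelled CD4 cells of the CD25− gate, was higher here, at 1.11 and 3.29 CPM (2.97-fold, 2.07 to 4.35). Ifi27l2a was at 4.49 and 36.9 CPM (8.21-fold, 6.96 to 9.74) and Ifi44 at 4.96 and 15.0 CPM (3.03-fold, 2.56 to 3.60).

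Of the 42 members, 14 had a ratio less than 25% above and less than 20% below 1 in Ptcra cells. Among them Bst2 was at 400 and 371 CPM, Ifi47 at 134 and 119 CPM, Ifi35 at 61.9 and 55.6 CPM, Parp14 at 50.8 and 53.2 CPM, Stat2 at 36.4 and 34.2 CPM, Gbp2 at 33.1 and 31.4 CPM and Gbp3 at 11.3 and 11.2 CPM. Across all 7 class comparisons Bst2 was the 1 member with a ratio below 1 each time, between 0.843 and 0.947. Ifi208, Oasl2, Tgtp1, Iigp1 and Ifit2 were the 5 with a ratio above 1 each time. The shares of all measured genes above or below 1 each time were not counted. Of the 42 members, 5 were shifted in none of the classes where they were measured.

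The Ptcra cells of the 2 libraries were not in the same state. Emid1 was at 193 CPM in WT and 64.2 CPM in knockout-labelled Ptcra cells, and Scn4b at 59.3 and 16.6 CPM, so 77.6% of the WT and 40.8% of the knockout-labelled cells had a UMI of either. The proliferation genes Mki67 and Top2a were at 135 and 170 CPM in WT and 211 and 276 CPM in knockout-labelled cells. Rag1, which starts receptor gene rearrangement, was close, at 354 and 310 CPM. With the class limited to cells without Scn4b and Emid1 (1065 WT and 3868 knockout-labelled), the median log2 ratio was 1.02 and 26 members were at least 1.5-fold higher. Limited to cells without Mki67 and Top2a (3614 and 4343) it was 1.09 with 27 members, and limited to cells with Rag1 (3611 and 4857) it was 1.00 with 26. These 3 limits were chosen after the data had been seen. Dissociation genes summed to 1912 CPM in knockout-labelled and 4792 CPM in WT Ptcra cells, Hspa8 alone being at 481 and 2681 CPM. The part of these genes in the difference was not tested.

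Separating the genes by class in the CD25+ gate, Iigp1 was the 1 member shifted higher in all 4 classes. In Ptcra cells 28 members were shifted higher and none lower (11.6% and 10.2% of all measured genes), in Foxp3 cells 17 and 3 (5.47% and 7.15%), in mature CD4 cells 8 and 2 (6.76% and 6.49%) and in immature CD4 cells 4 and 7 (8.95% and 8.91%). Higher in Ptcra cells and in no other class were 14 members: Irf9, Ifit1, Ifit3b, Isg15, Isg20, Rsad2, Rtp4, Samhd1, Oas2, Oas3, Irgm2, Ifi206, Ifi209 and Ifi213. Higher in Foxp3 cells and in no other class were 4: Zbp1, Irgm1, Gbp2 and Gbp3. Both classes shared 11: Irf7, Ifit2, Ifit3, Ifitm3, Oas1a, Oasl2, Iigp1, Ifi208, Ifi44, Ifi27l2a and Xaf1. Ifi47 and Stat2 were shifted in immature CD4 cells alone, where both were lower. Bst2, Trim30a, Ifi35, Parp14 and Ifih1 were shifted in no class of this gate. The Ptcra sums held 34287551 UMIs in WT and 47973967 in knockout-labelled cells, against at most 4017914 in any other class of this gate. At the same level a ratio thus has a narrower interval in Ptcra cells. Differences between classes were not tested, and the shares of all measured genes shifted in every class or in 1 class alone were not counted.

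Per-cell values were compared after thinning every cell to 1500 UMIs, which left out 2 to 212 shallower cells per class and library. The mean number of member UMIs in a thinned mature CD4 cell was 9.57 in WT CD25−, 13.05 in knockout-labelled CD25−, 8.41 in WT CD25+ and 10.7 in knockout-labelled CD25+. Without Ifi27l2a it was 7.32, 9.31, 5.90 and 7.23, higher in the knockout-labelled library of each gate. In immature CD4 cells it was 5.11, 6.28, 4.36 and 3.99, and in Foxp3 cells 9.91 (over 44 thinned cells), 13.3, 11.5 and 13.6. Ptcra cells had a mean of 2.32 in WT and 3.13 in knockout-labelled, with a median of 2 in both, and 15.0% and 10.6% of them had no member UMI. In mature CD4 cells of the CD25− gate 0.952% and 0.372% had none.

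The share of cells with Iigp1 was higher in the knockout-labelled library at equal depth. In thinned mature CD4 cells it was 6.06% in WT CD25− (4.75% to 7.59%, Clopper-Pearson interval), 22.3% in knockout-labelled CD25− (19.5% to 25.3%), 2.91% in WT CD25+ (1.51% to 5.02%) and 15.0% in knockout-labelled CD25+ (10.5% to 20.5%). Unthinned shares were 15.7%, 50.2%, 6.75% and 31.5%. In Ptcra cells it was 1.40% in WT (1.08% to 1.78%) and 5.65% in knockout-labelled (5.10% to 6.24%) thinned, and 4.48% and 18.5% unthinned, at median depths of 6073 and 5993 UMIs. In these 2 classes each knockout-labelled interval lay above the WT interval of the same gate. It also did in immature CD25− and in CD25+ Foxp3 cells, but the intervals overlapped in CD25− Foxp3 cells (1.43% to 18.7% and 10.2% to 32.4%) and in immature CD25+ cells (0.816% to 3.09% and 2.31% to 5.75%).

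For Isg15 the thinned share in Ptcra cells was 8.42% in WT (7.64% to 9.25%) and 16.4% in knockout-labelled (15.5% to 17.4%), against 25.4% and 43.0% unthinned. Irf7 was found in 1.87% and 5.16% of thinned Ptcra cells, Ifit1 in 0.594% and 2.88% and Ifi208 in 0.255% and 2.55%. Ifi27l2a, found in 87.2% of thinned WT and 89.9% of knockout-labelled CD25+ Foxp3 cells, was found in 0.573% and 4.15% of thinned Ptcra cells. Free RNA gives UMIs in cells that do not make a transcript, and the WT Ptcra class had the lowest share of Ifi27l2a of all classes. The part of free RNA in the knockout-labelled share was not tested. CD4 and Foxp3 cells, in which Ifi27l2a was found more often, made up 21.9% of the WT and 11.8% of the knockout-labelled CD25+ cells. Of all member UMIs, Ptcra cells held 48877 of 109258 in WT and 92035 of 144661 in knockout-labelled CD25+.

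**Figure D4:**
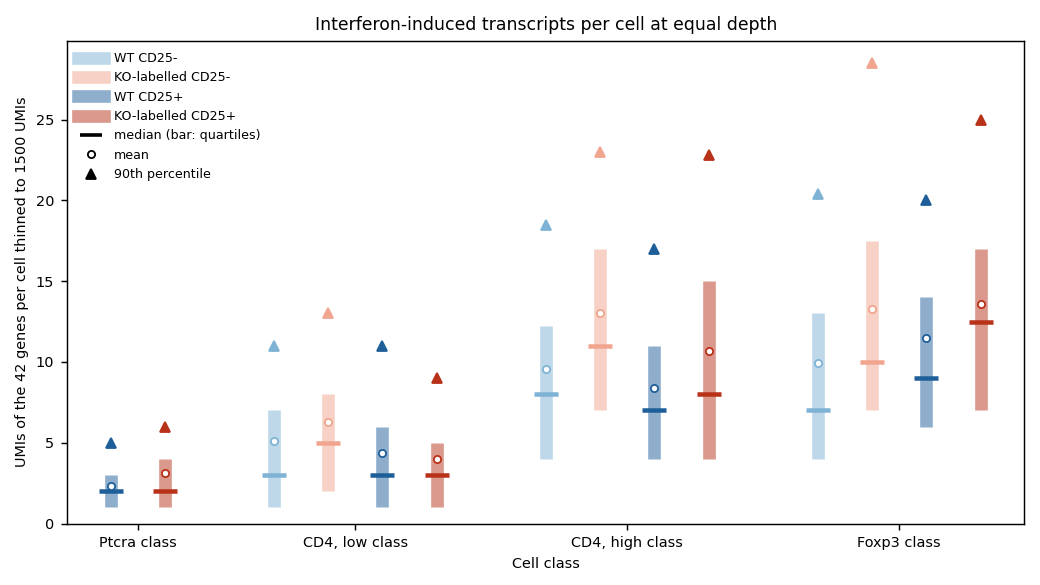
UMIs of the 42 members per cell (vertical axis) after thinning to 1500 UMIs, by class and library. Bars span the quartiles, dashes are medians, circles means and triangles the 90th percentile over cells, which are not replicates. The knockout-labelled means lie above the WT means of the same gate in every class but immature CD25+ cells.

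Between the gates, members were lower in CD25+ than in CD25− CD4 cells of the same genotype and class. In WT, 13 of 42 were at least 1.5-fold lower in mature cells (7.35% of all measured genes) and 1 higher (10.9%), with a median log2 ratio of −0.43, and 26 of 40 in immature cells (16.8%), with 2 higher (13.8%) and a median of −0.80. In the knockout-labelled libraries 23 of 42 were lower in mature cells (11.0%) and 1 higher (13.3%), with a median of −0.61, and 32 of 42 were lower in immature cells (16.4%) and 2 higher (16.2%), with a median of −0.99. With classes assigned after thinning, the knockout-labelled mature median was −0.17 with 6 members lower, and the WT immature median −0.47 with 17. With cells weighted equally these counts were 12 and 15. In Foxp3 cells 5 of 41 were lower (16.6%) and 7 higher (17.1%) in WT with a median of −0.02, and 9 of 41 were lower (15.1%) and 2 higher (15.7%) in knockout-labelled libraries with a median of −0.30. These comparisons use the same 4 libraries as the genotype comparisons. The markers of CD4-negative, CD8-negative thymocytes summed higher in immature CD25+ than in immature CD25− cells, but Il2ra, the gene of the sort marker, is among them. The part of CD4-negative, CD8-negative cells was not tested.

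In immature cells Oas2 was at 26.9 CPM in CD25− and 4.27 CPM in CD25+ cells of WT, 6.29-fold lower (3.77 to 11.1), and at 9.80 and 2.49 CPM in knockout-labelled cells, 3.94-fold lower (1.92 to 8.88). Samhd1 was 2.89-fold lower in WT (2.63 to 3.17) and 5.99-fold lower in knockout-labelled immature cells (5.25 to 6.84). In Foxp3 cells Samhd1 was at 394 and 611 CPM in WT, 1.55-fold higher in the CD25+ gate (1.252 to 1.94). Shifted lower in every class were 3 members in WT (Ifi213, Ifi208 and Ifit1) and 12 in the knockout-labelled libraries, which included these 3. Of all measured genes, 7.34%, 11.5% and 24.8% were shifted lower in WT Foxp3, mature and immature cells, and 10.3%, 12.1% and 23.6% in knockout-labelled ones. The share of all measured genes shifted lower in every class was not counted.

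Ifitm3 and Bst2 were the members that were higher in the CD25+ gate in every class of both genotypes, with 1 interval of Ifitm3 and 3 of Bst2 including 1. Ifitm3 in WT was at 12.5 CPM in CD25− and 29.3 CPM in CD25+ mature cells (2.34-fold, 1.71 to 3.19) and at 8.67 and 19.6 CPM in immature cells (2.26-fold, 1.52 to 3.40). In knockout-labelled cells it was at 8.14 and 19.2 CPM in mature (2.36-fold, 1.45 to 3.78) and 14.6 and 17.9 CPM in immature cells. Bst2 was at 140 and 237 CPM in WT immature cells (1.69-fold, 1.53 to 1.87) and at 133 and 200 CPM in knockout-labelled ones (1.504-fold, 1.34 to 1.69). Its mature-cell ratios were 1.09 and 1.03.

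The pathway around the members was measured through 4 further lists. The 21 ligand genes summed to 4.14 CPM in WT and 3.90 CPM in knockout-labelled Ptcra cells, nearly all of it Ifng (4.02 and 3.73 CPM), and to at most 1.26 CPM in any other class. Of the type I genes, Ifnz had 4 and 6 UMIs and Ifnab and Ifnk at most 1 UMI in Ptcra cells. Of the 6 receptor chains, none was at least 1.5-fold different between genotypes in CD4 or Foxp3 cells of either gate, and 1 was in Ptcra cells, Il10rb at 3.06 CPM in WT and 4.84 CPM in knockout-labelled cells (1.58-fold, 1.249 to 2.01). Ifnar1 was at 74.9 CPM in WT and 83.4 CPM in knockout-labelled mature CD25− cells (1.11-fold, 0.986 to 1.26), and at 37.8 and 38.7 CPM in Ptcra cells. Ifngr1, the ligand-binding chain of the interferon γ receptor, was at 328 CPM in WT and 230 CPM in knockout-labelled Ptcra cells (0.701, 0.683 to 0.720), and Ifngr2 at 8.37 and 11.0 CPM (1.32-fold, 1.14 to 1.53).

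Of 17 JAK-STAT and IRF genes, none of the 16 measured was at least 1.5-fold higher and 1 was lower in mature CD25− cells, and none in either direction in Ptcra cells (medians −0.05 and −0.16). Irf1, an early target of interferon γ, was at 206 and 280 CPM in mature CD25− cells (1.35-fold, 1.26 to 1.45) and 102 and 114 CPM in Ptcra cells. The 1 gene lower was Irf2bp2, a corepressor that binds IRF2, at 115 and 44.4 CPM (0.387, 0.337 to 0.444).

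Of the 12 sensing genes upstream of interferon, 9 were measured in mature CD25− cells and none reached 1.5-fold there (median 0.07). In Ptcra cells 2 of 9 did, Tlr7 at 1.17 and 3.00 CPM (2.57-fold, 1.80 to 3.75) and Tmem173, which encodes STING, at 17.9 and 28.7 CPM (1.60-fold, 1.46 to 1.77). A list of 46 other interferon-induced genes, none of them members, had a median of 0.27 in mature CD25− cells (34 of 40 measured higher, 5 by at least 1.5-fold), 0.35 in CD25− Foxp3 cells and 0.12 in immature CD25− cells. Ms4a4c, a membrane protein, was at 12.5 and 36.2 CPM in mature CD25− cells (2.90-fold, 2.26 to 3.74) and Ly6a, the stem cell antigen Sca-1, at 154 and 321 CPM (2.09-fold, 1.94 to 2.25). In Ptcra cells the same list had a median of 0.23, with 12 of 45 measured at least 1.5-fold higher and none lower, against a median of 1.09 for the members. There Phf11b was at 0.262 and 2.56 CPM (9.77-fold, 4.98 to 21.9) and Tap2, a peptide transporter subunit, at 350 and 238 CPM (0.679, 0.662 to 0.697).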

How the data were processed

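The authors' deposited files hold UMI counts per gene and cell barcode for 4 libraries, made with Cell Ranger and mm10. The submitters' processing notes give Cell Ranger 6.2.1, and per the file headers it was 6.1.2. Barcodes with at least 500 genes and under 10% mitochondrial UMIs were kept (the lowest deposited barcode had 500 UMIs), and the highest doublet scores of Scrublet (in scanpy 1.11.5) were removed at 0.8% per 1000 barcodes, which was 2.89% to 8.64% of kept cells. Depth after filtering was 11159298 to 68989300 UMIs per library. Counts were summed over the cells of a class and divided by the class total (CPM), and classes under 50 cells were left out. A ratio needed 30 UMIs over both sums. Intervals are exact at 95%, conditional binomial for ratios and Clopper-Pearson for shares (scipy 1.17.1), and cover counting error only. With 1 library per group (4 animals pooled per genotype) there was no test. Ratios were tested on simulated counts with known folds. Members and lists were chosen with earlier results of these data known. Every member is accounted for, and values were given in full for the 5 highest and 3 lowest ratios per gate, for members shifted in every class or in 1 class, for 11 members in every comparison and for the extreme genes of each pathway list; other named genes were chosen after their values were seen. Alternatives changed the cell filter, doublet removal, class definitions, low-count filter, scaling, cell weights, depth and fold. The result of 1 gene of the pathway lists is not reported here.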

Additional observations from a re-analysis of the deposited data

Results flagged for a closer look

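These results went in opposite directions in different gates or classes under the same genotype contrast, and for single genes each counting interval excluded 1. None of the differences was tested, since each rests on 1 library per group. All values are log2 ratios, knockout-labelled over WT. In immature CD4 cells Irgm1 was at 0.44 in the CD25− and −0.36 in the CD25+ gate, and the median of all measured members was 0.21 and −0.13. Ifitm3 in the CD25− gate was at −0.62 in mature and 0.75 in immature CD4 cells. Within the CD25+ gate, genes of the Ifi200 cluster were lower in immature CD4 cells and higher in Ptcra cells: Ifi206 was at −0.64 and 1.9, Ifi213 at −0.65 and 2.21 and Ifi209 at −0.5 and 0.9, with Ifi209 also at −0.36 in Foxp3 cells. Samhd1 was at −1.16 in immature CD4 cells and 0.75 in Ptcra cells. Oas3 was at −0.99 in Foxp3 cells and 1.09 in Ptcra cells. Irgm1 was at 0.35 in Foxp3 cells and −0.36 in immature CD4 cells. Ifit1 was at −0.41 in mature CD4 cells and 2.19 in Ptcra cells.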

How the results depend on the processing

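No median changed sign under any alternative where the counting interval of its middle members excluded 0. The WT gate median in Foxp3 cells was −0.02 against −0.03 over all measured genes. It therefore turns positive when ratios are centred on the median measured gene. Of the alternatives, 178 of 185 medians and 168 of 192 counts stayed near the reported value. With classes assigned after thinning to 1500 UMIs, the maturation median was 0.36 in WT CD25−, 0.53 in knockout-labelled CD25− and 0.48 in WT CD25+, with 6, 20 and 19 members at least 1.5-fold higher. The same setting gave a genotype median of 0.61 and 18 members in mature CD25+ cells, 11 members in immature CD25− and 2 in immature CD25+ cells. It gave a gate median of −0.17 with 6 members in knockout-labelled mature cells, and −0.47 with 17 members in WT immature cells. With cells weighted equally, the WT gate median in immature cells was −0.43 with 15 members, the knockout-labelled gate count in mature cells 12, and the genotype count in immature CD25− cells 11. With higher counted from 25% upward, the genotype counts were 20 in mature and 13 in immature CD25− cells, and 21 in Foxp3, 13 in mature and 9 in immature CD25+ cells. With at least 100 UMIs, so fewer genes counted, genotype counts were 5 in Foxp3 and 4 in immature CD25− cells and 5 in Foxp3, 5 in mature and 2 in immature CD25+ cells, and gate counts in Foxp3 cells 2 in WT and 5 in knockout-labelled. With doublets kept the WT gate count in Foxp3 cells was 10. For changes other than fewer genes or a lower fold, the cause was not tested. Thinned classes and the stricter cell filter left fewer than 50 CD25− Foxp3 cells and gave no value there. Depth limits the CD25− Foxp3 class most, with 32 of 42 members measured. No paired analysis was possible because each group has 1 library.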

Other observations

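Markers of other cell types were summed in the same classes. B cell markers (6 genes) summed to 10.3 CPM in knockout-labelled and 3.93 CPM in WT mature CD25+ cells and to 82.9 and 88.3 CPM in Ptcra cells, and red blood cell markers (5 genes) to at most 3.56 CPM in any class. Myeloid and dendritic cell markers (12 genes) summed to 115 and 110 CPM in mature CD25− cells, 350 and 293 CPM in mature CD25+ cells and 161 and 195 CPM in Ptcra cells, in the same order of genotypes. Markers of plasmacytoid dendritic cells (8 genes), which make type I interferon, summed to 80.7 and 79.4 CPM, 263 and 207 CPM, and 1115 and 1747 CPM. These markers hold Ly6d, and Ccr9, which thymocytes also express. In Ptcra cells Ly6d alone was at 963 and 1525 CPM, against 37.5 and 95.7 CPM for Ccr9 and 0.334 and 0 CPM for Siglech. Natural killer and innate-like T cell markers (6 genes) were at 50.01 and 18.6 CPM in mature CD25+ and 126 and 172 CPM in Ptcra cells. Epithelial and stromal markers (7 genes) were at 116 and 118 CPM in mature CD25− and 166 and 75.3 CPM in CD25− Foxp3 cells. Their part in the member values was not tested.

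Interferon-induced genes outside the list followed the same maturation contrast less steeply. In WT CD25− cells 18 of 40 measured were at least 1.5-fold higher in mature CD4 cells (median log2 ratio 0.43), in knockout-labelled CD25− 22 of 41 (0.59), in WT CD25+ 19 of 42 (0.51) and in knockout-labelled CD25+ 23 of 40 (0.76), against 0.82, 0.96, 1.17 and 1.247 for the members. This list shares the classes and libraries with the members, and the difference between the lists was not tested.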
